A study of Mus musculus with 8 samples.

Results

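The genes considered here encode 3 receptor tyrosine kinases that are drug targets in human cancer, MET, KIT and RET, together with their ligands HGF, KITL and GDNF and the RET co-receptors GFRA1 and GFRA3. They were taken by symbol from a table of FPKM values (fragments scaled to transcript length and to the mapped fragments of the library), and all 8 genes were found among its 23361 genes. The table holds 5 cancers and 3 control tissues of the gastric squamous-columnar junction (SCJ), the border between the squamous forestomach and the glandular stomach of the mouse. The cancers carried the genotype Trp53-/-Rb1-/- and arose in Lgr5-eGFP-IRES-CreERT2 mice with floxed Trp53 and Rb1 and the Ai9 tdTomato reporter after tamoxifen, so that Cre acted only in Lgr5+ cells and the tumor outline was set by tdTomato. The controls were the whole SCJ compartment of age-paired mice given as wild type. The strain, the age at collection of each animal and whether the control mice received tamoxifen are not given in the labels.

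MET is the receptor for hepatocyte growth factor (HGF), which mesenchymal cells secrete as an inactive precursor and which drives growth and motility of epithelial cells. KIT is a type III receptor tyrosine kinase bound by stem cell factor (KITL). In the stomach wall it is best known from mast cells and from the interstitial cells of Cajal, the pacemaker cells of gut muscle. RET does not bind its ligands alone: a ligand of the GDNF family first binds a GFRA co-receptor held at the cell surface by a lipid anchor, and the complex then activates RET, a signal required for the enteric nervous system.

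Of the 8 genes, Kit, Ret and Gfra1 were higher in the cancers and Kitl was lower, while Met and Hgf did not pass the test and Gdnf and Gfra3 were listed at 0 in every sample. The test was limma on log2(FPKM + 1) over 14357 genes, at a Benjamini-Hochberg adjusted p of 0.05. It could be applied to 6 of the 8 genes, and Gfra1 passed the filter on low values only through the cancers, where it was high, so that it had to differ. Across all genes tested it called 34.5%, of which 16.2% of all tested genes were higher and 18.3% lower, so that 4 called of 6 stands beside a wide change of the transcriptome. The 4 called genes are also those in which no cancer overlapped a control, which held for 34.1% of all genes tested, 14.4% with the cancers above and 19.8% with the cancers below. The controls came from separate stomachs, whereas the labels do not tie the tumors to separate mice, and all p-values measure only the spread between these samples.

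**Figure D1:**
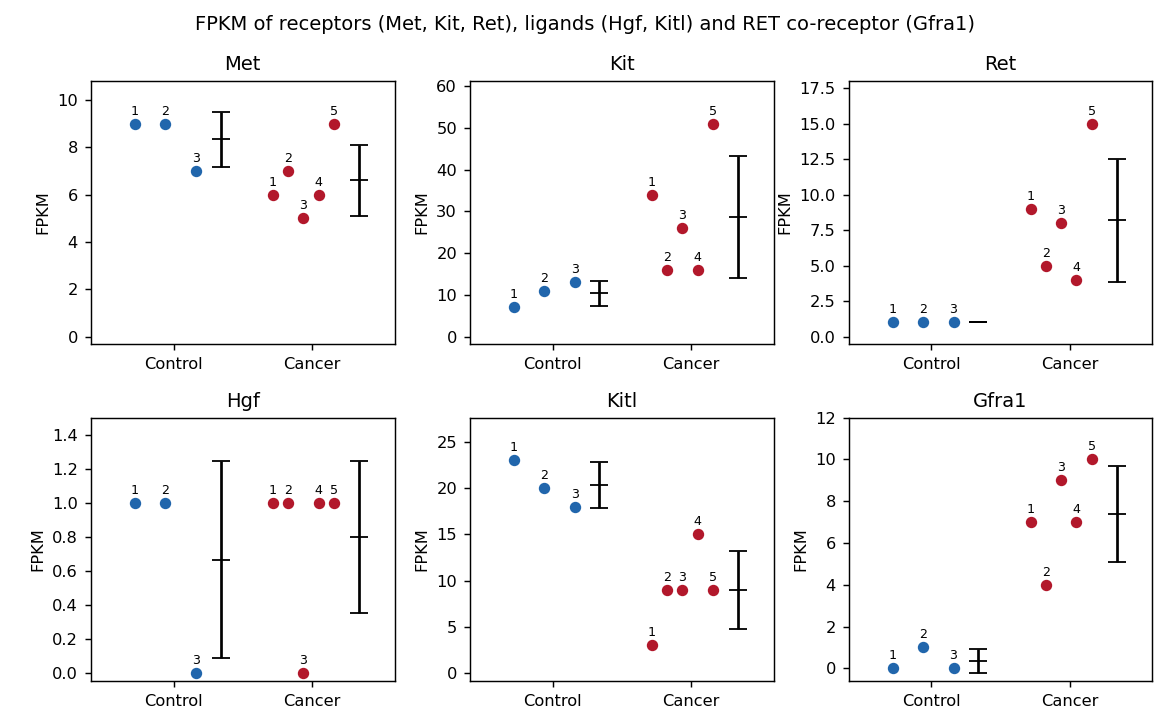
FPKM of Met, Hgf, Kit, Kitl, Ret and Gfra1 (vertical axes) in 3 control tissues (blue) and 5 cancers (red), each point a sample with its replicate number, and bars showing the mean and SD of the group. Kit, Ret and Gfra1 lie above all controls in every cancer, Kitl lies below, and Met and Hgf overlap.

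The libraries differed in composition. The FPKM of all genes summed to between 403569 and 573858 in the cancers and to between 887141 and 992550 in the controls, where the 10 most abundant genes took 39.3 to 44.3% of the sum against 11.1 to 19.6% in the cancers. Rescaling every library to the same sum (TPM) moved the median change over all tested genes (log2) from -0.04 to 0.81, and differences printed on that scale are followed by their value relative to this median. Markers of gastric glands summed to between 158537 and 240752 FPKM in the controls and to between 694 and 78716 in the cancers, and forestomach squamous markers to between 4606 and 7263 and between 2 and 3362. Rb1 was listed at 4, 4, 5, 6 and 4 FPKM in cancers 1 to 5 and at 9, 9 and 10 in the controls (log2 fold change -0.90, SE 0.16, limma adjusted p = 0.0059), and the difference was -0.05 with TPM, or -0.86 relative to the median. Trp53 overlapped between the groups, with 12 to 30 FPKM in the cancers and 16 to 19 in the controls (adjusted p = 0.87 by limma). In bulk tissue, fewer cells of a type and less RNA per cell cannot be told apart.

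RET and its co-receptor GFRA1 showed the largest differences among the 8 genes. Ret, at chr6:118151748-118197744 of mm10, was listed at 9, 5, 8, 4 and 15 FPKM in cancers 1 to 5 and at 1 in each of the 3 controls. Every cancer was above every control, with cancer 5 the highest and cancers 2 and 4 the lowest. The mean was 8.2 ± 4.32 FPKM (SD, n = 5) against 1.0 ± 0.0 (n = 3), a ratio of 8.2 that rounding of the values to whole numbers leaves anywhere between 5.13 and 17.4. On the log2 scale Ret rose by 2.08 (SE 0.36, 95% interval 1.24 to 2.92, limma adjusted p = 0.0058). The exact two-sided permutation test gave p = 0.0179, the smallest value that 5 samples against 3 allow. With TPM the difference was 3.00, or 2.19 above the median of all genes.

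Gfra1, at chr19:58236692-58454466, encodes the co-receptor that prefers GDNF. It was listed at 7, 4, 9, 7 and 10 FPKM in the cancers and at 0, 1 and 0 in the controls. The cancers spanned 2.5-fold, less than the 3.75-fold span of Ret, and cancer 2 was the lowest. The mean of 7.4 ± 2.3 FPKM (SD, n = 5) compared with 0.333 ± 0.577 (n = 3), a ratio of 22.2 that rounding leaves between 8.28 and 47.4. Gfra1 rose by 2.69 on the log2 scale (SE 0.33, 95% interval 1.92 to 3.46, limma adjusted p = 0.0019, exact permutation p = 0.0179). With TPM the difference was 3.62, or 2.81 above the median.

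The 250 bases before the start of Gfra1 (chr19:58455399-58455648, minus strand, RefSeq, GRCm38.p6) are shown because this gene had the widest ratio between the groups. Capitals mark the E-box letters CANNTG, which were searched on both strands, match in 3 places here and occur in 66.2% of 32851 RefSeq windows of this length. The RefSeq start lies beyond the end of the locus in the deposited table.
Gfra1: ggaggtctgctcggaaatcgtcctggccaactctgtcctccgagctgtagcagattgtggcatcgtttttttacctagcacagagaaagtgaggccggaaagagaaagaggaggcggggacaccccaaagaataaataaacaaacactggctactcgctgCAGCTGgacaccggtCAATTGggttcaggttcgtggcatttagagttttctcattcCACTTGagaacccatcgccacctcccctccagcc
This window held no GGGCGG, the core bound by Sp1, and its GC content of 52.4% equalled the median of all windows. A match of letters is a description of the sequence only.

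Among the ligands of these co-receptors, GDNF, artemin and persephin transcripts were at or near 0. Gdnf, at chr15:7811011-7837575, the preferred ligand of GFRA1, was listed at 0 in all 8 samples. Gfra3, the co-receptor of artemin, was also listed at 0 throughout, and no fold can be given for either. An exact 0 in this table need not mean that a transcript was absent, since Pgc, a gland gene named after its values were seen, was listed at 28832, 0 and 0 in the 3 controls. Artn, which encodes artemin, was listed at 1 in cancer 4 and at 0 elsewhere, and Pspn (persephin) at 1 in cancers 1 and 5.

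Neurturin (Nrtn), the remaining ligand of the family, moved against the receptor. It was listed at 2, 7, 4, 11 and 8 FPKM in cancers 1 to 5 and at 15, 19 and 26 in the controls, without overlap. Nrtn fell by 1.63 on the log2 scale (SE 0.45, limma adjusted p = 0.027). With TPM the difference was -0.79, or -1.60 relative to the median, and missed the threshold (adjusted p = 0.13), as it did without cancer 3 (0.065), control 1 (0.062), control 2 (0.079) or control 3 (0.1). GFRA2, the co-receptor that prefers neurturin, was listed at 1 in cancers 1 and 2 and at 0 elsewhere.

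Gfra4, the co-receptor of persephin, rose with Gfra1. It was listed at 8, 12, 3, 4 and 7 FPKM in the cancers and at 1 in each control (log2 fold change 1.84, SE 0.37, limma adjusted p = 0.0098). Its order among the cancers was not that of Gfra1: cancer 2 was the highest for Gfra4 and the lowest for Gfra1. The sum of both co-receptors was 15, 16, 12, 11 and 17 FPKM in cancers 1 to 5 and 1, 2 and 1 in the controls, a narrower relative range among the cancers than that of either gene alone. This sum was chosen after the values were seen and was not tested.

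Ncam1, an adhesion molecule that can also bind GDNF together with GFRA1, was listed at 16, 6, 17, 7 and 16 FPKM in the cancers and at 0, 1 and 1 in the controls, a log2 difference of 2.96 (SE 0.42, limma adjusted p = 0.0031). Ncam1, like Gfra1, passed the filter on low values only through the cancers, so that it had to differ. Gdf15, the ligand of GFRAL, reached 6 FPKM in cancer 5 and 1 or 2 in the other cancers, and did not pass the test (log2 fold change 0.93, limma adjusted p = 0.15). Gfral itself was listed at 0 in all 8 samples. Gas1, a GFRA-related surface protein, ranged from 1 to 7 FPKM in the cancers and from 4 to 7 in the controls and did not pass the test. Of the 9 other genes of the GDNF family list, 5 could be tested, of which 2 were called higher and 1 lower, 60.0% in all beside 34.5% of all genes tested.

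**Figure D2:**
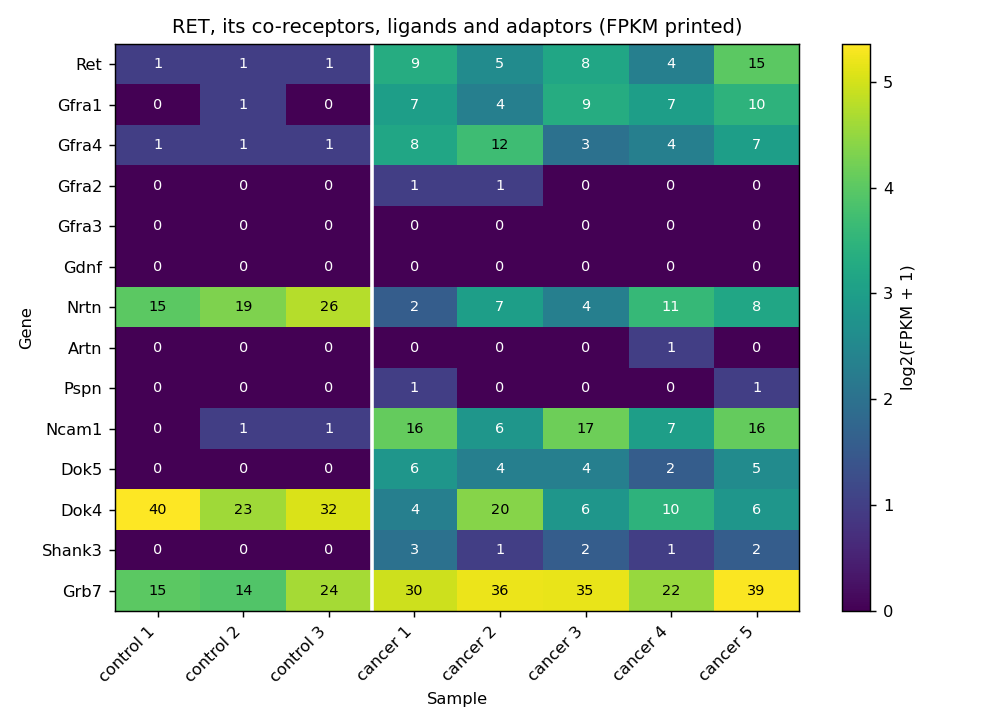
FPKM of RET, its co-receptors, ligands, Ncam1 and adaptors (rows) in 3 controls and 5 cancers (columns), with the rounded FPKM printed in each cell and the color showing log2(FPKM + 1). Ret, Gfra1, Gfra4, Ncam1 and Dok5 are higher in all 5 cancers, Nrtn and Dok4 are lower, and Gdnf and Gfra3 are 0 in every cell.

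Adaptors and scaffolds that bind RET did not move together. Dok5 was listed at 6, 4, 4, 2 and 5 FPKM in the cancers and at 0 in all controls (limma adjusted p = 0.0015), and the scaffold Shank3 at 3, 1, 2, 1 and 2 against 0 (0.0058). Dok5 and Shank3 passed the filter on low values only through the cancers, so that they had to differ and their p-values are given as a description. The related Dok4 went the other way, with 4, 20, 6, 10 and 6 FPKM against 40, 23 and 32 (log2 fold change -1.84, SE 0.45, limma adjusted p = 0.019). Grb7 was listed at 22 to 39 FPKM in the cancers and 14 to 24 in the controls (log2 fold change 0.85, SE 0.24, adjusted p = 0.030 by limma), and its call was lost without any of cancers 1, 2, 3 and 5 or controls 1 and 2 (adjusted p up to 0.11). The call of Dok4 was lost without control 1 (0.078) or control 3 (0.065) and with TPM (0.054). Of 10 RET adaptors tested, 3 were called higher and 1 lower, 40.0% in all beside 34.5% of all genes tested. The median log2 fold change was 0.04, or -0.22 when the 3 genes at 0 in a whole group were left out.

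Markers of the cells in which RET is best known gave different pictures. All 10 neuroendocrine markers tested were called higher, 2 of them having passed the filter only through the cancers, with summed FPKM of 8400 to 18559 in the cancers and 128 to 192 in the controls. Of 7 enteric neuron markers tested by limma, 3 were higher and 0 lower, also at an unadjusted p under 0.05. The 3 were Uchl1, Snap25 and Elavl4, which neuroendocrine cells also express and of which Elavl4 passed the filter only through the cancers, and the summed FPKM of the list was 150 to 225 in the cancers and 13 to 16 in the controls. The neuropeptide Vip overlapped, with 0, 25, 5, 9 and 1 FPKM against 5, 4 and 2, as did Hand2 (0 to 12 against 1 to 3) and Tubb3 (0 to 9 against 2 to 3), and Chat, a marker of cholinergic neurons, was listed at 0 in all 8 samples. Of 4 glia markers tested, 1 was higher, having passed the filter only through the cancers, and 1 lower, and Sox10, Foxd3 and Cdh19 were listed at 0 throughout. The part of the neuroendocrine and neuronal markers in the level of Ret was not tested.

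KIT and its ligand moved in opposite directions. Kit, at chr5:75574987-75656721, was listed at 34, 16, 26, 16 and 51 FPKM in cancers 1 to 5 and at 7, 11 and 13 in the controls. All cancers lay above all controls, but cancers 2 and 4, at 16, were close to control 3, at 13. The mean was 28.6 ± 14.6 FPKM (SD, n = 5) against 10.3 ± 3.06 (n = 3), a ratio of 2.77, and the cancers themselves spanned 3.19-fold. Kit rose by 1.29 on the log2 scale (SE 0.41, 95% interval 0.35 to 2.23, limma adjusted p = 0.044, exact permutation p = 0.0357). With TPM the difference was 2.24, or 1.43 above the median. The call was near the threshold. It was lost without cancer 1 (adjusted p = 0.081 by limma), cancer 3 (0.087), cancer 5 (0.055), control 1 (0.15), control 2 (0.1) or control 3 (0.076).

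Kitl, at chr10:100015824-100100412, was listed at 3, 9, 9, 15 and 9 FPKM in the cancers and at 23, 20 and 18 in the controls. Every cancer was below every control, with cancer 1 the lowest and cancer 4 the nearest to the controls. The mean of 9.0 ± 4.24 FPKM (SD, n = 5) compared with 20.3 ± 2.52 (n = 3), a ratio of 0.443. Kitl fell by 1.22 on the log2 scale (SE 0.40, 95% interval -2.14 to -0.29, limma adjusted p = 0.048, exact permutation p = 0.0714). With TPM the difference was -0.33 (adjusted p = 0.45), or -1.14 relative to the median of all genes, and with quantile normalization -1.07 (0.092). The call was also lost without cancer 2 (0.07), cancer 3 (0.088), cancer 5 (0.076), control 1 (0.14), control 2 (0.12) or control 3 (0.11).

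The ratio of Kit to Kitl within a sample, which no rescaling of a whole library can change, was 11.3, 1.78, 2.89, 1.07 and 5.67 in cancers 1 to 5 and 0.304, 0.55 and 0.722 in the controls. The receptor was thus above its ligand in each cancer and below it in each control, although in cancer 4 the values of 16 and 15 FPKM were nearly equal. The ratio was chosen after the values were seen and was not tested.

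The 250 bases before the starts of Kit (chr5:75574737-75574986) and Kitl (chr10:100015571-100015820), both on the plus strand of GRCm38.p6 in RefSeq, are set side by side because receptor and ligand moved apart. Capitals mark 3 motifs, each searched on both strands. GGGCGG is the core bound by Sp1. The letters TATAAA are those of a core promoter element. TTTNNCGC is the core of a site for E2F, the family of factors that the RB1 protein holds in check.
Kit: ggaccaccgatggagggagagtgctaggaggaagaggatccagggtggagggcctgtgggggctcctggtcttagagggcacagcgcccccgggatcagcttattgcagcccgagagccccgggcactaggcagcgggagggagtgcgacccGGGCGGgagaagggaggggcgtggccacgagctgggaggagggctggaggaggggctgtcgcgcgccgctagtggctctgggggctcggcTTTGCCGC
Kitl: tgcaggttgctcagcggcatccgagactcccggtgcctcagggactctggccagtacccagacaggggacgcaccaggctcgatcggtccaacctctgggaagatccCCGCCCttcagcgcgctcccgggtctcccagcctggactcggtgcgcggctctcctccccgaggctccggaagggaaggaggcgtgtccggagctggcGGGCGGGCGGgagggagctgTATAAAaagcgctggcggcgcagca
The Kit window held 1 GGGCGG and, 8 bases before the start, 1 TTTNNCGC, a match present in 4.28% of 32851 windows. The Kitl window held 3 GGGCGG, of which 2 overlap and 1 is on the opposite strand, and 1 TATAAA 25 bases before the start. GGGCGG occurs in 32.7% of all windows and TATAAA in 12.4%. GC content was 70.8% for Kit and 69.2% for Kitl against a median of 52.4%. No CANNTG was found in either window.

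Markers of the other cells known to carry KIT went in different directions. Mast cell markers summed to 3, 33, 4, 16 and 33 FPKM in cancers 1 to 5 and to 85, 83 and 47 in the controls. Of 8 mast cell markers tested, 5 were called lower and 0 higher (0 also at an unadjusted p under 0.05), among them the tryptases Tpsab1 (log2 fold change -3.27, limma adjusted p = 0.0020) and Tpsb2 (-2.83). Of the 5, Tpsb2, Cma1 and Cpa3 passed the filter only through the controls, so that they had to differ. The mast cell receptor genes Ms4a2 and Fcer1a were listed at 0 in every cancer, but only at 1, 0 and 0 and at 1, 1 and 0 in the controls. They were too low to be tested. The markers tested and not called, Mcpt1, Mcpt2 and Gata2, overlapped between the groups. Gata2 had a log2 fold change of 0.38, with 2, 1, 0, 1 and 0 FPKM against 1, 0 and 0. The part of these cells in the level of Kit was not tested. Ano1, a chloride channel of interstitial cells of Cajal and of some epithelia, was listed at 1, 28, 2, 9 and 13 FPKM in the cancers against 25, 25 and 31 in the controls (adjusted p = 0.11 by limma). Gpr20, another marker of these cells, was listed at 1 in cancer 2 and at 0 in the other samples. Thbs4, a matrix protein of the same list, was listed at 0, 6, 4, 2 and 1 FPKM in the cancers and at 0 in the controls, and did not pass the test (limma adjusted p = 0.075). With Etv1 included, the Cajal cell list summed to 110, 62, 121, 71 and 91 FPKM in cancers 1 to 5 and to 26, 26 and 32 in the controls. Etv1 alone gave 107, 27, 115, 60 and 77 of this in the cancers and 1 in each control. The higher sum in the cancers therefore came from Etv1, while nearly all of the control sum was Ano1. Of 6 melanocyte markers, 5 were listed at 0 in all samples, and the remaining 1 was tested by limma and not called, although it was lower at an unadjusted p under 0.05.

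Etv1, a transcription factor that works with KIT in interstitial cells of Cajal, had the largest change among the genes of these pathways. It was listed at 107, 27, 115, 60 and 77 FPKM in the cancers and at 1 in each control (log2 fold change 5.13, SE 0.44, limma adjusted p = 0.00078). Of 3 Cajal cell markers tested by limma it alone was called higher, 2 were higher at an unadjusted p under 0.05, and 0 were lower by either rule. Its lowest cancer was cancer 2, the cancer with the most Ano1.

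**Figure D3:**
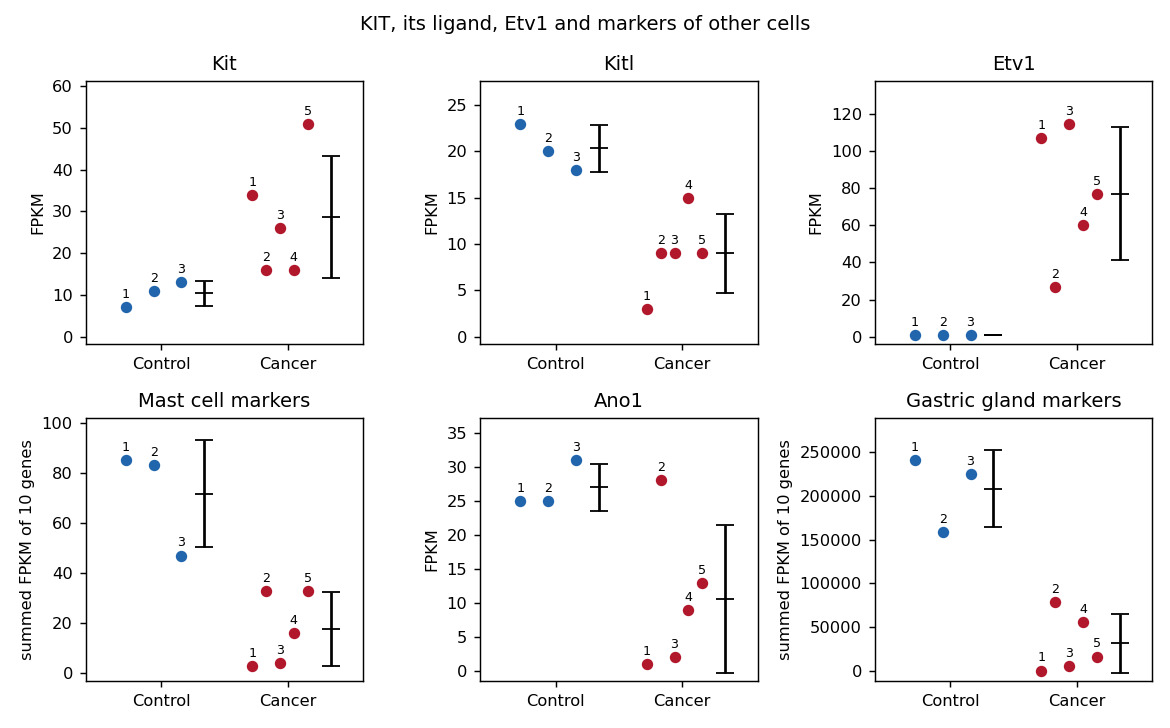
FPKM of Kit, Kitl, Etv1 and Ano1 and summed FPKM of the mast cell and gastric gland marker lists (vertical axes) in 3 controls (blue) and 5 cancers (red), with replicate numbers and the mean and SD of each group. Kit and Etv1 are above all controls in every cancer while the mast cell sum is at most 33 in the cancers and at least 47 in the controls.

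Partners that act directly below KIT were called about as often as genes at large, 37.5% of 16 tested beside 34.5% of all genes. The kinase Fyn was listed at 15, 3, 6, 3 and 6 FPKM in the cancers and at 1, 1 and 2 in the controls (log2 fold change 1.53, SE 0.46, limma adjusted p = 0.038), and the related Src at 13 to 23 against 27 to 38 (-0.95, SE 0.21, 0.013). Src lost its call with TPM (adjusted p = 0.94). Mitf, which KIT regulates in melanocytes and mast cells, was listed at 0, 1, 1, 3 and 1 FPKM against 3, 4 and 4 (log2 fold change -1.21, SE 0.39, limma adjusted p = 0.046). The call of Fyn was lost without cancer 3 or 5 or any control (up to 0.12), that of Mitf without cancer 2, 3 or 5 or any control (up to 0.13), and that of Src without control 1 (0.059). Mitf also lost its call with TPM (0.23), a pseudocount of 0.1 (-2.16, 0.13) and no filter (0.051), and Fyn with quantile normalization (0.088). With the replicate number as a block, Fyn (0.12) and Src (0.14) were not called either. Of the KIT partners, 2 were called higher and 4 lower, with a median log2 fold change of 0.23. These counts were not stable: with TPM 10 were higher and 0 lower, beside 50.0% and 3.68% of all genes tested. Without control 1 they were 1 and 0.

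Among the other type III receptors and their ligands, 4 of 10 tested by limma were called higher (40.0%) and 0 lower, beside 16.2% and 18.3% of all genes tested. At an unadjusted p under 0.05, 1 was lower. Pdgfrb, a receptor of pericytes and fibroblasts, was listed at 7, 4, 9, 7 and 2 FPKM against 1 in each control (log2 fold change 1.65, SE 0.38, limma adjusted p = 0.016). Csf1r, the macrophage receptor, was listed at 12, 5, 10, 4 and 5 FPKM against 2, 3 and 2 (1.21, SE 0.35, 0.032) and its ligand Csf1 at 4, 3, 5, 4 and 8 against 1, 1 and 2 (1.28, SE 0.28, 0.013). Unlike KIT and its ligand, receptor and ligand were therefore both called higher. Flt3l, the ligand of FLT3, was also called (0.95, SE 0.25, limma adjusted p = 0.023), whereas Flt3 was listed at 1 in cancer 1 and at 0 elsewhere. Csf1r and Flt3l lost their calls without cancer 3 or any control (up to 0.11 and 0.091) and with quantile normalization, Csf1 without control 1 or 2 (up to 0.056), and Pdgfrb without any of the controls (up to 0.056). Markers of macrophages (3 of 6 tested) and endothelial cells (6 of 8) were called higher by limma and 0 of either list lower, also at an unadjusted p under 0.05, with summed FPKM of 117 to 385 against 38 to 68 and of 27 to 77 against 11 to 19. The macrophage calls include Csf1r itself. Of the 6 endothelial calls, 2 were genes that passed the filter only through the cancers. Of 10 fibroblast and 8 smooth muscle markers tested, limma called 0, with 1 fibroblast and 0 smooth muscle markers at an unadjusted p under 0.05, and their sums of 72 to 393 against 97 to 173 and of 48 to 1722 against 365 to 561 overlapped. The part of these cells in the type III receptor genes was not tested.

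Met changed little. It lies at chr6:17463957-17573980 and was listed at 6, 7, 5, 6 and 9 FPKM in the cancers and at 9, 9 and 7 in the controls. Cancers 1, 3 and 4 were below every control and cancers 2 and 5 within their range. The mean was 6.6 ± 1.52 FPKM (SD, n = 5) against 8.33 ± 1.15 (n = 3). The log2 fold change of -0.31 did not pass the test (SE 0.19, 95% interval -0.75 to 0.13, limma adjusted p = 0.22, exact permutation p = 0.214), and with TPM its sign turned (0.57, or -0.24 relative to the median). The interval leaves room for a fall of up to 0.75 on the log2 scale, and with TPM it ran from -0.01 to 1.15. With limma's array weights Met was called lower (-0.46, limma adjusted p = 0.036).

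Hgf, at chr5:16553550-16619439, was at the bottom of the measurable range. It was listed at 1 FPKM in 4 cancers and 0 in cancer 3, and at 1, 1 and 0 in the controls. The groups overlapped fully (log2 fold change 0.13, SE 0.33, 95% interval -0.64 to 0.91, limma adjusted p = 0.77, exact permutation p = 1.0), and quantile normalization turned the sign (-0.21). Rounding alone leaves the ratio of the means between 0.343 and 3.9, so that no difference of this order was detectable.

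The ratio of Ret to Met within a sample was 1.5, 0.714, 1.6, 0.667 and 1.67 in cancers 1 to 5 and 0.111, 0.111 and 0.143 in the controls. Ret was therefore the more abundant per length in cancers 1, 3 and 5 and Met in cancers 2 and 4 and all controls. The ratio was chosen after the values were seen and was not tested.

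**Figure D4:**
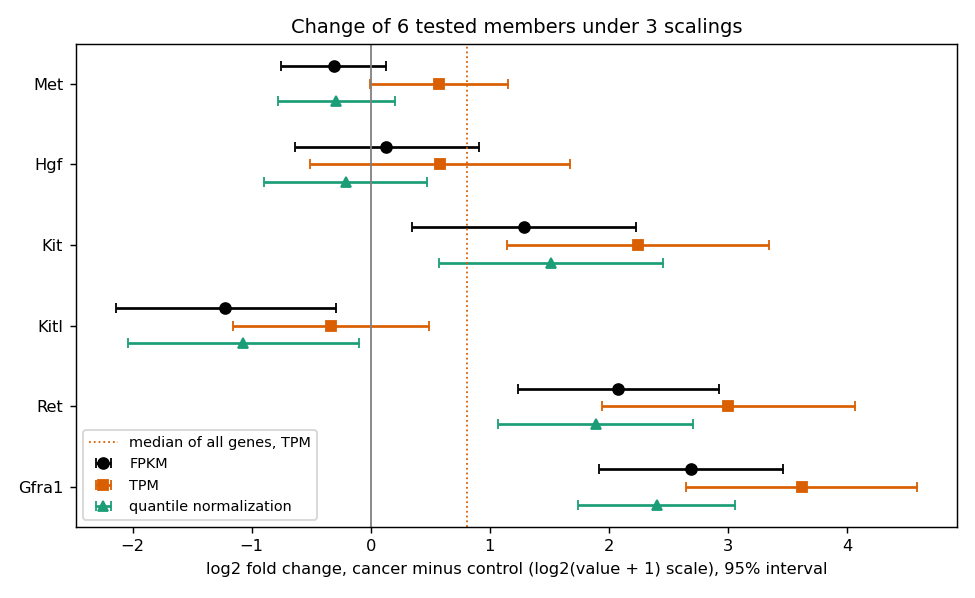
Log2 fold change of the 6 tested genes, cancer minus control, with its 95% interval (horizontal axis) for FPKM (black), TPM (orange) and quantile normalized values (green), and the median of all genes with TPM as a dotted line at 0.81. Kit, Ret and Gfra1 lie to the right of 0 and Kitl to the left under all 3 scalings, Met lies to the right with TPM only, and Hgf lies to the left with quantile normalization only.

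HGF must be cleaved to act, and 2 genes for proteases that can do so differed between the groups. Hgfac, the HGF activator, was listed at 11, 19, 14, 4 and 16 FPKM in the cancers and at 2, 2 and 3 in the controls (log2 fold change 1.92, SE 0.43, limma adjusted p = 0.014). Tmprss2, a membrane serine protease, was listed at 13, 65, 22, 39 and 50 FPKM against 105, 113 and 146 (-1.85, SE 0.49, 0.025). Hgfac and Tmprss2 did not overlap between the groups, in opposite directions. Hgfac lost its call without control 1 (0.058) or control 2 (0.054), and Tmprss2 without cancer 3 (0.059), control 1 (0.07), control 2 (0.071) or control 3 (0.089) and with TPM (0.087). Of 8 protease and inhibitor genes tested these were the only calls, 25.0% beside 34.5% of all genes tested, and the median log2 fold change was -0.16.

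The remaining proteases overlapped or were near 0. St14 (matriptase) was listed at 46 to 110 FPKM in the cancers and 62 to 96 in the controls, and Hpn (hepsin) at 0, 12, 4, 12 and 21 against 12, 13 and 17. F12 (coagulation factor XII) was listed at 5 FPKM in cancer 5 and at 0 in the other samples, and Klkb1 (plasma kallikrein) at 1 in cancer 5 only. Cancer 5 also stood apart in hepatocyte markers, which summed to 514 FPKM there, to 9 to 65 in the other cancers and to 14 to 20 in the controls, with 1 of 3 tested called higher, a gene that passed the filter only through the cancers, and 1 lower. Spint2, a membrane inhibitor of these proteases, was abundant everywhere, with 798 to 1056 FPKM against 533 to 718, every cancer being above every control. It did not pass the test (log2 fold change 0.45, limma adjusted p = 0.11) but was called with quantile normalization (1.03, 0.027) and with TPM (1.43, or 0.62 relative to the median, 0.0018).

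Of the relatives and partners of MET, 6 of 9 tested were called (66.7%), in both directions, beside 34.5% of all genes tested. Mst1r, which encodes RON, the closest relative of MET, was listed at 0, 11, 2, 10 and 6 FPKM in the cancers and at 32, 22 and 23 in the controls (log2 fold change -2.43, SE 0.80, limma adjusted p = 0.049). Cd44, a hyaluronan receptor whose long forms assist MET, was listed at 16, 46, 55, 31 and 32 FPKM against 8, 10 and 11 (1.69, SE 0.37, 0.012). Every cancer was below all controls for Mst1r and above all controls for Cd44. The semaphorin receptor Plxnb2 was lower, with 41, 72, 41, 43 and 50 FPKM against 155, 104 and 114 (-1.33, SE 0.23, limma adjusted p = 0.0057), and its relative Plxnb1 was called higher at the threshold (0.88, SE 0.29, 0.050). The call of Mst1r was lost without cancer 3 or 5 or any control (up to 0.14), that of Cd44 without control 1 (0.054), and that of Plxnb1 without any sample but cancer 2 (up to 0.17). With TPM the calls of Mst1r (0.12) and Plxnb2 (0.15) were lost, the difference of Plxnb2 then being -0.36, or -1.17 relative to the median, and with quantile normalization those of Mst1r (0.055) and Plxnb1 (0.053). Mst1r and Plxnb1 were also not called with a pseudocount of 0.1 (0.13 and 0.053) or no filter (0.052 and 0.054). A prior without the trend left Plxnb1 uncalled too.

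The epithelial splicing regulators Esrp1 and Esrp2, which set splice forms of CD44, were both called lower, Esrp2 with 2, 16, 5, 16 and 15 FPKM against 41, 35 and 41 (log2 fold change -2.05, SE 0.61, limma adjusted p = 0.035) and Esrp1 with 27 to 37 against 41 to 45 (-0.53, SE 0.14, 0.022), although the sign of Esrp1 turned with TPM (0.42, or -0.39 relative to the median). Both lost their calls without any of the controls, and Esrp2 also without cancer 3 (up to 0.11). With quantile normalization Esrp1 was at -0.13 (0.55) and Esrp2 was not called (0.061), nor was Esrp2 with TPM (-1.19, or -2.0 relative to the median, 0.096). In all, 2 MET relatives and co-receptors were called higher and 4 lower, with a median of -0.11. The counts were 4 and 0 with TPM, 1 and 1 with quantile normalization, and 0 and 0 with the replicate number as a block. Without control 1, 2 or 3 the number called lower was 1 each time. Of 7 general epithelial markers tested, 3 were called higher and 2 lower, and of 10 gland and 10 squamous markers limma called 1 and 2 lower (6 and 4 at an unadjusted p under 0.05) and 0 higher by either rule.

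Of 12 MET adaptors and negative regulators tested by limma, 2 were called lower and 0 higher, 16.7% in all beside 34.5% of all genes tested. At an unadjusted p under 0.05, 3 were lower and 1 higher. Gab1, the main docking protein of MET, was listed at 1, 3, 1, 3 and 2 FPKM in the cancers and at 6, 8 and 9 in the controls (log2 fold change -1.58, SE 0.30, limma adjusted p = 0.0078). Crk, an adaptor recruited by GAB1, was listed at 26 to 37 FPKM against 58 to 96 (-1.15, SE 0.21, 0.0065), a call lost with TPM (0.45). Gab1 was the only gene of the pathway lists that remained called lower with TPM. The median of the list was 0.02. With TPM 5 of its genes were called higher and 1 lower, and with quantile normalization 2 and 3.

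Genes that report or limit signaling through the MAPK pathway, which all 3 receptors can activate, included 5 called higher and 1 lower of 16 tested, 37.5% in all beside 34.5% of all genes, with a median log2 fold change of 0.20. The transcription factors Etv4 and Etv5 rose in every cancer, Etv4 with 4, 7, 4, 5 and 7 FPKM against 1 in each control (1.65, SE 0.21, limma adjusted p = 0.0021) and Etv5 with 17, 17, 19, 11 and 31 against 3, 3 and 4 (2.14, SE 0.29, 0.0027). The inhibitor Spred3 was listed at 3, 2, 3, 2 and 6 FPKM against 0 in each control (limma adjusted p = 0.0030), but entered the test only through the cancers, and the other 2 genes called higher, named after their values were seen, were the inhibitors Spry2 and Spry4. Phlda1 was lower, with 6 to 30 FPKM against 48 to 61 (-1.77, SE 0.51, limma adjusted p = 0.033), a call lost without cancer 3 or 5 or any control (up to 0.11), with TPM (0.11) and with quantile normalization (0.064). Dusp6, a phosphatase induced by ERK, was listed at 14 to 29 FPKM against 16 to 19 and did not pass the test (0.35, SE 0.24, limma adjusted p = 0.27).

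**Figure D5:**
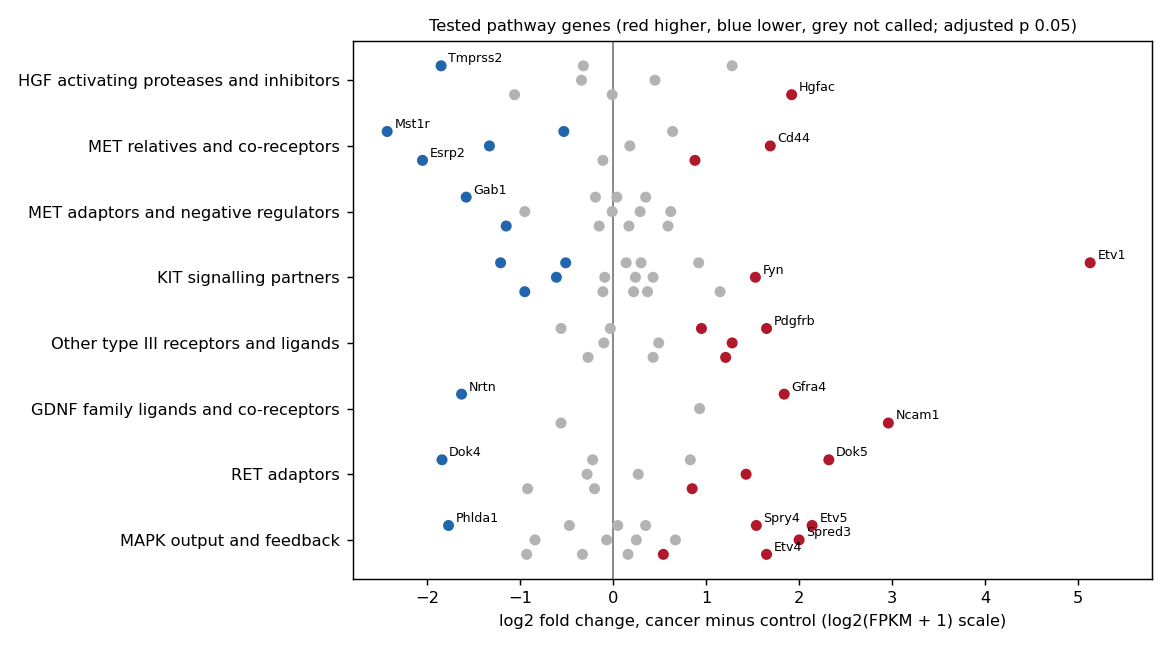
Log2 fold change, cancer minus control, on the log2(FPKM + 1) scale (horizontal axis) of the tested genes of 8 pathway lists (rows), each point a gene, red for called higher, blue for called lower and grey for not called. Most lists hold calls in both directions, and Etv1 lies farthest to the right at 5.13.

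Over the 8 pathway lists, 85 of 94 genes were tested, of which 19 were called higher (22.4%) and 14 lower (16.5%), 4 of the higher ones having passed the filter only through the cancers, beside 16.2% and 18.3% of all genes tested, with a median log2 fold change of 0.16 beside -0.04 for all genes. The number called higher was 8, 9 and 12 without controls 1, 2 and 3, and the number called lower was 3, 5 and 5 without these and 7 without cancer 3. With TPM 43 were higher (50.6%) and 1 lower (1.18%), beside 50.0% and 3.68% of all genes tested. Of the 29 called genes that could be named by rule, 11 kept their call in each of the 8 fits that left out a sample, of which 4 (Ncam1, Dok5, Shank3 and Spred3) had passed the filter only through the cancers. The others were Gfra4, Etv1, Etv4, Etv5, Gab1, Crk and Plxnb2.

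The patterns of the members over the 8 samples were compared as the mean absolute difference of log2(FPKM + 1), each gene centred on its own mean. Kit and Ret were 0.37 apart, Ret and Gfra1 0.43 and Kit and Gfra1 0.66, while Kit and Kitl were 1.31 apart. Kit and Ret shared their order among the cancers, with cancers 5, 1 and 3 above cancers 2 and 4. Among 9125 genes with a mean of at least 5 FPKM, those nearest to Ret were Scpep1 (0.12), Lpcat1 (0.16) and Rasa3 (0.17), and those nearest to Kit were Gsdma (0.15), Mapk8ip1 (0.16) and Kif1a (0.16). The nearest to Kitl were Gpr160 (0.15), Elovl7 (0.16) and Cdkn2b (0.16), and the nearest to Met were Socs6 (0.08), Fbxo34 (0.10) and Aars (0.11). The samples share their libraries and the group difference, and the distances are descriptions only.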

How the data were processed

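RNA of 5 SCJ cancers and 3 control SCJ tissues was isolated with polyA+ selection and made into directional libraries. Per the study's methods and the submitters' processing notes, reads were trimmed with cutadapt 1.8, and annotated genes (UCSC mm10) were quantified with cuffquant and Cuffnorm 2.2.1. TopHat2 2.0.13 is also listed. The deposited values are FPKM that the authors rounded to whole numbers, which makes them a score rather than counts of reads. All values were whole (100%). The depth of each library is unknown. No counting interval is given, and rounding limits precision at low values.

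A gene entered the test when 3 or more samples had an FPKM of 1 or more. The fit used limma 3.58.1 under R 4.3.3, with a trend in the eBayes prior, on log2 values after adding a pseudocount of 1, and p-values were adjusted by Benjamini-Hochberg at 0.05. Fold changes on this scale understate those of low genes. Single members were also compared with an exact two-sided permutation test. The groups were those of the labels.

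The members and all gene lists were chosen with earlier results of these data known. Of 224 list entries, 223 were in the table. Any gene of the HGF protease, MET relative, type III receptor and GDNF family lists could be named. Of the other lists, up to 4 called genes with the largest change and up to 2 with the highest mean were named, and for each member with a mean of at least 5 FPKM the 3 nearest genes. Other marker genes (Gpr20, Thbs4, Ms4a2, Fcer1a, Mcpt1, Gata2, Chat, Vip, Hand2, Tubb3, Sox10, Foxd3 and Cdh19) were named outside this rule, after their values were seen. The fit was tested on simulated data. The alternatives were a pseudocount of 0.1, no filter, a mean of at least 5 FPKM, TPM, a prior without the trend, quantile normalization, limma's array weights, the replicate number as a block and leaving out each sample. Promoters came from RefSeq (GRCm38.p6), which had entries for 6 of the 8 members.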

Additional observations from a re-analysis of the deposited data

Results flagged for a closer look

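Of 27 genes and lists checked in the 5 cancers, 3 had a highest or lowest sample whose gap to the next, divided by the range of the group, was above Dixon's 95% value of 0.71, where chance gives about 1.35. Hgf was listed at 0 in cancer 3 and at 1 FPKM in the other 4 cancers, a gap of 1.0 of the range that is a step of 1 in the rounded value. The mean log2(FPKM + 1) of the MAPK output and feedback genes was 3.67 in cancer 5, with the next cancer at 3.15 and the lowest at 2.95 (0.729 of the range). Cancer 5 was also the highest for Kit, Ret and Gfra1. The mean log2(FPKM + 1) of the hepatocyte markers was 5.15 in cancer 5, with the next at 1.37 and the lowest at 0.674 (0.844 of the range). Without cancer 5, Ret remained called and Kit did not (1.05, limma adjusted p = 0.055). Gfra1 also remained called, but it passed the filter only through the cancers, so that this is no measure of stability.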

How the results depend on the processing

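Ret remained called higher under every alternative (log2 fold change 1.85 to 2.27 when a sample was left out, adjusted p up to 0.041 with the block). Gfra1 remained called under all that tested it (2.52 to 3.02 when a sample was left out) except the replicate block (2.55, adjusted p = 0.071), but it passed the filter only through the cancers and its kept call is no measure of stability. Kit ranged from 1.05 to 1.46 when a sample was left out and was not called in 6 of 8 such fits, nor with the replicate block (1.19, adjusted p = 0.14). Kitl ranged from -1.42 to -0.92 and was not called with a pseudocount of 0.1 (-1.32), no filter (-1.22), TPM (-0.33, or -1.14 relative to the median), quantile normalization (-1.07) or the block (-1.53). Met ranged from -0.42 to -0.23, turned with TPM (0.57, or -0.24 relative to the median) and was called lower with array weights (-0.46). Hgf ranged from -0.20 to 0.33, negative without control 3, and turned with quantile normalization (-0.21) and array weights (-0.30). Hgf and Gfra1 were not tested with a mean of at least 5 FPKM, and Gdnf and Gfra3 under no setting. The cause was not tested in any of these cases.

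The number of members called higher was 3, and 1 with the replicate block and 2 to 3 when a sample was left out. The number called lower was 1, and 0 with a pseudocount of 0.1, no filter, TPM, quantile normalization or the block, 2 with array weights and 0 to 1 when a sample was left out. Over all genes, 4948 were called (2326 higher, 2622 lower), 7704 with TPM (7176 and 528), 8148 with array weights (3909 and 4239), 1534 with the replicate block (982 and 552), and 2490 to 5252 when a sample was left out (1369 to 2466 higher, 1121 to 2786 lower), the fewest without controls 1, 2 and 3 (2490, 2643 and 2815), with 1702 lower without cancer 3. With a mean of at least 5 FPKM, 1244 were higher. Of the pathway genes, 19 were higher and 9 with a mean of at least 5 FPKM, 43 with TPM, 10 with the block and 8 to 19 when a sample was left out. The 14 lower were 1 with TPM, 9 with quantile normalization, 1 with the block and 3 to 15 when a sample was left out. Of the other values under these alternatives (single pathway genes and list counts), 762 were rated as kept. For a gene this meant the same direction and side of the threshold, and for a list count only a value close to that of the main fit. Of the rest, 112 genes' values lost the threshold with the same direction, 20 gained it, 94 counts moved and 30 changed sign. Apart from Esrp1 with TPM (0.42, or -0.39 relative to the median), the sign changes were in genes not called on FPKM. The TPM ones follow, each with its value relative to the median second. They were Lrig1 (0.84, called, 0.03), Gas1 (0.20, -0.61), Pdgfa (0.84, 0.03), Pdgfb (0.25, -0.56), Pdgfc (0.71, -0.10), Pdgfd (0.56, -0.25), Plau (0.84, 0.03), Rap1gap (0.02, -0.79), Spint1 (0.65, -0.16) and St14 (0.62, -0.19). Those with quantile normalization were Lrig1 (0.16), Mst1 (-0.16), Pdgfa (0.22), Spint1 (0.14) and St14 (0.12). Array weights turned Mst1 (-0.30) and Pdgfc (0.05), and the block turned Mst1 (-0.33). When a sample was left out, Lrig1 ranged from -0.28 to 0.06, Pdgfa from -0.34 to 0.09, Pdgfc from -0.22 to 0.18 and Plau from -0.29 to 0.31. The labels do not say whether same-numbered samples were paired. The deviations of such samples correlated at -0.02, -0.19 and -0.10. This check, without other pairs set beside it, cannot settle whether they were processed together.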
